A study of Homo sapiens with 12 samples.

Results

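A set of 46 genes that carry out or control DNA replication and mitosis was followed in cerebral organoids of H1 cells, a long-established line of human embryonic stem cells. The members were chosen by gene symbol, and all 46 were found among the 28207 genes of the deposited count table. They comprised 2 G1 cyclins, 22 S phase genes and 22 G2/M genes. All 46 passed a filter on low counts that left 17757 genes in the tests. Bulk RNA sequencing had been carried out on 12 libraries in 4 groups. The FEZ1-null organoids (labelled FEZ1-KO, called KO here) gave 4 libraries at day 10 and 2 at day 60. The wildtype organoids (WT) likewise gave 4 libraries at day 10 and 2 at day 60. The labels did not say how FEZ1 was disrupted, how many knockout clones were used or whether each library was a culture of its own. The p-values therefore measure only how far these libraries spread, and that spread may be technical.

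Cells copy their DNA in S phase and divide it in mitosis, and most genes of these phases are transcribed mainly in cycling cells. Before replication, the origin recognition complex with CDC6 and CDT1 loads the MCM helicase on DNA (licensing). CDC45, GINS and MCM10 then turn it into a moving fork, and enzymes of nucleotide synthesis supply the building blocks. In G2 and mitosis, cyclin A and B kinases, PLK1 and Aurora kinases drive entry, and the spindle checkpoint holds cells until each kinetochore is attached. In an early cerebral organoid most cells are dividing neuroepithelial cells, and neurons that have left the cycle build up with time. FEZ1 encodes an adaptor of kinesin transport that is known mainly from neurons.

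The library totals ran from 15668253 to 22745658 counts. Levels are given as CPM, the count divided by the product of library total and TMM scaling factor, and scaled to 1e+06. These factors ran from 0.876 in KO replicate 1 of day 10 to 1.09 in WT replicate 2 of day 60. FEZ1 itself had 47.6 and 48.4 CPM in KO organoids, against 239.8 and 197.3 CPM in WT organoids at day 60 (log2 fold change -2.19 ± 0.16 SE, adjusted p = 0.000335). At day 10 it had 22.7, 20.2, 20 and 19.4 CPM in KO and 40.5, 43.3, 45.5 and 49.0 CPM in WT organoids (-1.11 ± 0.11 SE, adjusted p = 0.00153). The groups did not overlap at either day, so FEZ1 transcript was lower but still counted in the knockout. Neuroepithelial and radial glia markers (13 genes, such as PAX6, SOX2 and NES) summed to 2891 to 4210 CPM over the 8 libraries of day 10 and to 3251 to 3917 CPM over the 4 of day 60. Pluripotency markers summed to 1281 to 2450 CPM at day 10, and most of each sum was LIN28A (1169 to 2348 CPM). Over the same day 10 libraries DPPA4 had 86.45 to 123.5 CPM, POU5F1 1.959 to 10.46 CPM and ZFP42 3.921 to 12.03 CPM. At day 60 the pluripotency markers summed to 2.03 to 5.20 CPM, and NANOG was at 0 in every library. Each library name also held B16, B27 or B29, a code the labels left unexplained. Replicates 1 and 2 of each group had B16, and replicates 3 and 4 of day 10 had B27 and B29, so that all day 60 libraries were B16. Day and code could therefore be separated only through the B16 libraries of day 10. Of these, 3 stood apart from the rest of their groups. WT replicates 1 and 2 had 745.7 and 1117 CPM of summed neural crest and placode markers (9 genes, such as SOX10), against 22.4 to 51.4 CPM in the other 6 libraries of day 10. In KO replicate 1, ribosomal protein genes took 13.2% of the counts, and in the other 3 KO libraries 7.95% to 9.91%. Results that rest on these libraries are given with and without them.

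Regulatory sequence is shown for 8 members, because E2F sites and the cell cycle genes homology region (CHR) are the textbook promoter elements of S phase and of G2/M genes. The RefSeq promoter table (build GRCh38.p14, 250 bases before to 50 after each start) held 36 of the 46 members. The E2F letters TTCCCGC or TTGGCGC, on either strand, were in the promoters of 14 of 18 S phase genes (77.8%) and of 3 of 18 G2/M genes (16.7%), against 11% of all 27305 genes in the table. The CHR letters TTTGAA or TTCGAA were in 2 of 18 S phase genes (11.1%) and in 15 of 18 G2/M genes (83.3%), against 19.5% of all genes. The CCAAT letters were in 13 of 18 S phase genes (72.2%) and in 16 of 18 G2/M genes (88.9%), against 39.7% of all genes. CCAAT read on the other strand can overlap TTGGCGC, as it does in ORC1. A match is a description of letters and not of a bound site. The sequences are the 150 bases before the start of the 4 matched genes of each phase that fell most with age in WT organoids among those with their phase's letters in that window. They were thus chosen for holding them. Capitals mark E2F letters in the S phase genes, CHR letters in the G2/M genes, and CCAAT in all. The windows are chr1:52404424-52404573 (minus strand) for ORC1, chr16:88803639-88803788 (plus strand) for CDT1, chr6:52284743-52284892 (minus strand) for MCM3 and chr18:657503-657652 (plus strand) for TYMS, then chr5:163460482-163460631 (plus strand) for HMMR, chr15:40160919-40161068 (plus strand) for BUB1B, chr15:59104996-59105145 (plus strand) for CCNB2 and chr16:23678739-23678888 (plus strand) for PLK1.
ORC1: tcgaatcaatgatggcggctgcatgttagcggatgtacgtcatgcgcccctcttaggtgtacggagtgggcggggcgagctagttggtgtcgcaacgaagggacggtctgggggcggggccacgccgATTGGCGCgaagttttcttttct
CDT1: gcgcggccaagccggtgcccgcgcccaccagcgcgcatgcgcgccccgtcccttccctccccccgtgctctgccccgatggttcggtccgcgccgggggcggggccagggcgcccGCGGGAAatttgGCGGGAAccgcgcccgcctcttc
MCM3: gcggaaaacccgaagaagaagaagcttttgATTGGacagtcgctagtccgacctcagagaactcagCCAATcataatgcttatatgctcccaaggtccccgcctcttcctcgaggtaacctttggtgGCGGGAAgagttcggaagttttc
TYMS: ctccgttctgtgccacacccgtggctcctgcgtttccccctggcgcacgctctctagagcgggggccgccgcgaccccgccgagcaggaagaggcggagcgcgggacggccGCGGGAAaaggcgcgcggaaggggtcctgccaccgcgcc
HMMR: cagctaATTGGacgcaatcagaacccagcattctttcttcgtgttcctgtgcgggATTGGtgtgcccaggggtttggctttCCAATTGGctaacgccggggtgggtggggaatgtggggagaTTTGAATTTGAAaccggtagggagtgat
BUB1B: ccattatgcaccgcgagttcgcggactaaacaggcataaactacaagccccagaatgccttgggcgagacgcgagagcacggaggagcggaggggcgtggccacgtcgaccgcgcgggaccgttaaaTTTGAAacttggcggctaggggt
CCNB2: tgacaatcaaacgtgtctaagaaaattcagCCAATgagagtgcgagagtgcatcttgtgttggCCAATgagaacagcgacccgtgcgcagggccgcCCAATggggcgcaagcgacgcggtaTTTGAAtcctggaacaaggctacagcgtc
PLK1: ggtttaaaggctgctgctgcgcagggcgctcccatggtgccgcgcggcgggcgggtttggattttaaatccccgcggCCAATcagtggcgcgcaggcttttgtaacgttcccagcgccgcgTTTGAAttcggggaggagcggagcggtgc

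In these 8 genes the letters lay close to the start. The E2F match began 22 bases before it in ORC1, 23 in MCM3 and 39 in TYMS, and CDT1 had a pair at 35 and 23 bases. The CHR match began 23 bases before it in BUB1B and 29 in CCNB2 and PLK1, and HMMR carried a tandem pair at 28 and 22 bases. CDT1, TYMS and BUB1B had no CCAAT in the printed window, whereas HMMR had 4 and CCNB2 had 3, on either strand.

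The first comparison asked how the genes changed between day 10 and day 60. Both phases were far lower at day 60 in either genotype. In KO organoids 20 of 22 S phase genes and 18 of 22 G2/M genes fell, and 1 S phase gene (CCNE2) rose. Among all 17757 genes, 26.9% were called lower and 30.7% higher in that comparison. In WT organoids 20 of 22 S phase genes and 21 of 22 G2/M genes fell, against 26.1% of all genes called lower and 29.3% called higher. The median log2 fold change of day 60 over day 10 was -1.47 for S phase and -1.28 for G2/M genes in KO organoids, where the median of all genes was 0.03. In WT organoids the medians were -1.53 and -1.53, and that of all genes was -0.01. Calls are from edgeR's quasi-likelihood test with Benjamini-Hochberg adjustment over all 17757 genes, at an adjusted p below 0.05. Without overlap between the days, 20 S phase and 18 G2/M genes were lower in KO (31.6% of all genes) and 21 and 22 in WT organoids (35.3% of all genes). In bulk RNA, fewer cycling cells and less of these transcripts per cell cannot be told apart.

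**Figure D1:**
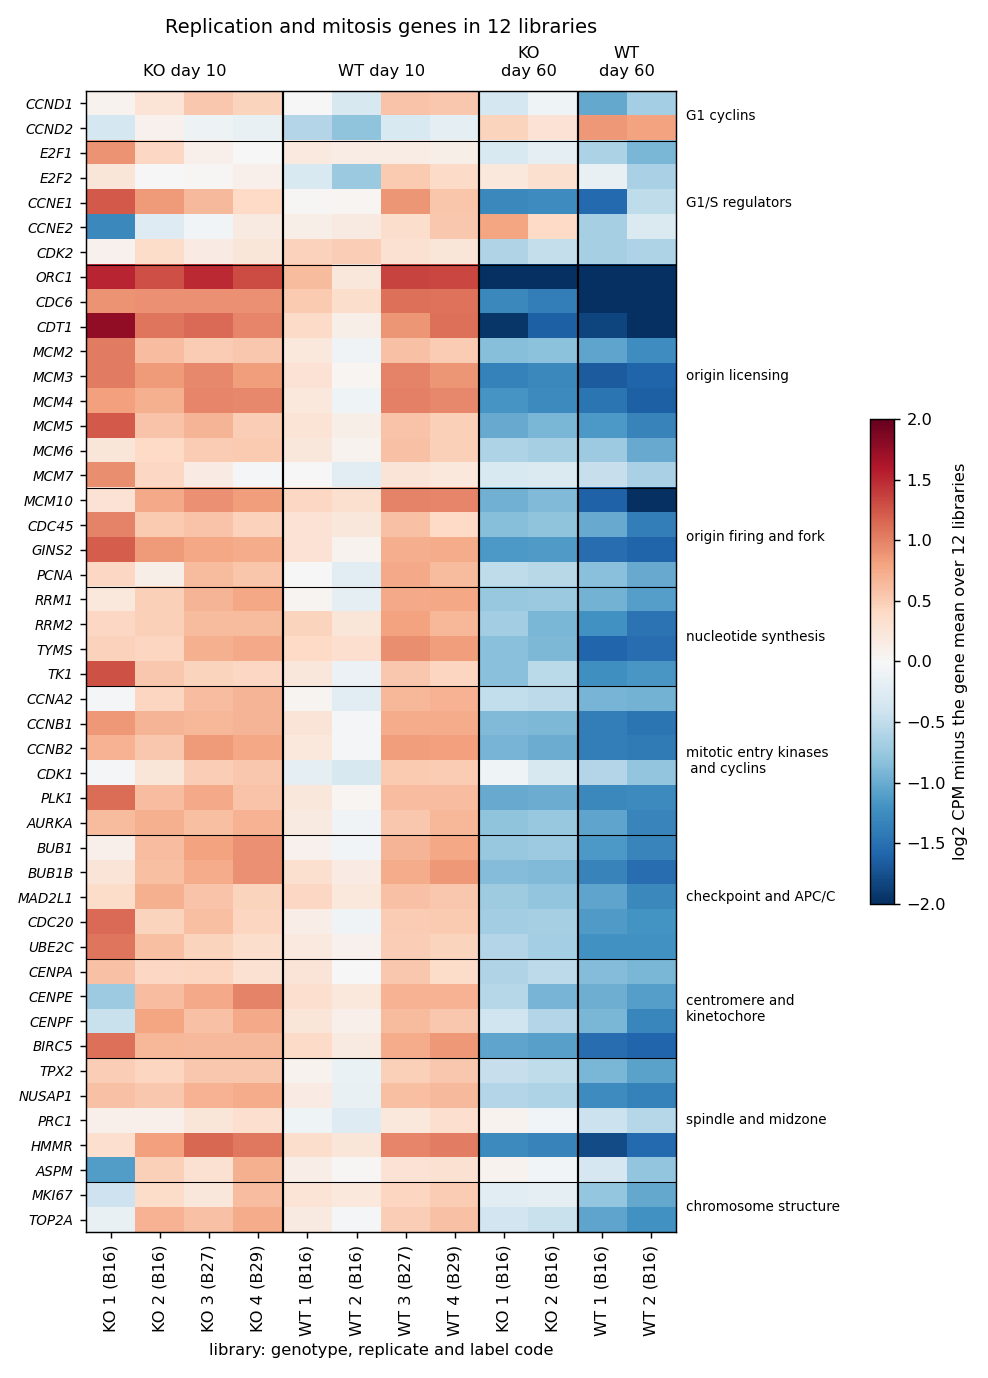
Level of each of the 46 genes (rows, grouped by role) in each of the 12 libraries (columns, with genotype, replicate and label code), as log2 CPM minus the gene's mean over the 12 libraries, with colours capped at 2 units either way. Nearly all rows are blue at day 60 and red at day 10, CCND2 runs the other way, and WT replicates 1 and 2 of day 10 are paler than WT replicates 3 and 4.

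Summed over the 22 S phase genes, KO organoids had 1120 and 1128 CPM at day 60, against 3563, 2942, 3068 and 2947 CPM at day 10. WT organoids had 943 and 849 CPM at day 60, against 2258, 1950, 3167 and 3064 CPM at day 10. The sums at day 60 were thus below every library of day 10 in both genotypes, and their means differed by -64.1% in KO and by -65.7% in WT organoids. The G2/M genes summed to 2446 and 2347 CPM at day 60 in KO organoids, against 4378, 4993, 5090 and 5332 CPM at day 10. In WT organoids they summed to 1722 and 1540 CPM at day 60, against 3837, 3365, 4995 and 5147 CPM at day 10. Again the days did not overlap, and the G2/M means differed by -51.6% in KO and by -62.4% in WT organoids.

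**Figure D2:**
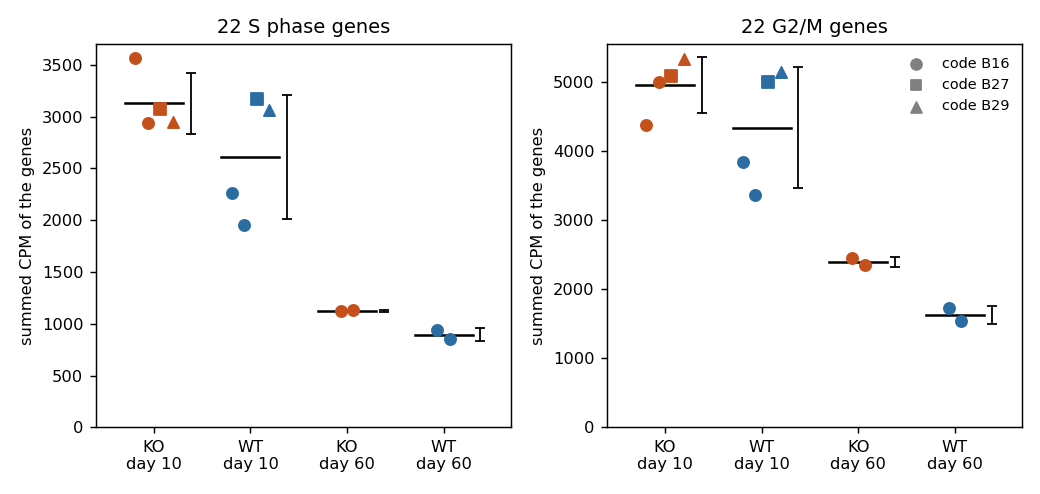
Summed CPM of the 22 S phase genes (left) and the 22 G2/M genes (right) in each library by group, with the shape of a point giving the label code, the line the group mean and the bar at its side ± 1 SD (n = 4 at day 10 and n = 2 at day 60). The day 60 libraries lie below all day 10 libraries, and both KO libraries of day 60 lie above both WT libraries of day 60.

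Origin licensing had the lowest median of the role groups (log2 fold change -2.10 in KO and -2.15 in WT organoids), and all 9 of its genes fell in both genotypes. ORC1, the largest subunit of the origin recognition complex, had 7.46 and 6.91 CPM at day 60 against 89.6, 76.4, 87.8 and 77.5 CPM at day 10 in KO organoids (log2 fold change -3.53 ± 0.33 SE, adjusted p = 7.21e-06). In WT organoids it had 5.26 and 6.35 CPM at day 60 against 48.5, 36.5, 79.7 and 78.7 CPM at day 10 (log2 fold change -3.39 ± 0.33 SE, adjusted p = 9.80e-06). The days were well apart, at 11.5-fold lower in KO and 10.5-fold lower in WT organoids. CDC6, which recruits the helicase loader, had 12.8 and 12.1 CPM at day 60 against 59, 59.4, 59.5 and 59.6 CPM at day 10 in KO organoids (-2.25 ± 0.22 SE). In WT organoids CDC6 had 7.81 and 7.66 CPM at day 60 against 45.2, 40.4, 67.3 and 66.7 CPM at day 10 (-2.83 ± 0.23 SE). For CDC6 too every library of day 60 was below every library of day 10. CDT1, the partner of CDC6 in loading MCM, had log2 fold changes of -3.05 ± 0.34 SE in KO and -2.60 ± 0.33 SE in WT organoids. The MCM2 to MCM7 genes, which encode the helicase ring, did not fall evenly. MCM3 (-2.25 in KO, -2.23 in WT) and MCM4 (-2.10 and -2.15) fell most on the log2 scale. MCM5 (-1.73 and -1.61), MCM2 (-1.52 and -1.48) and MCM6 (-1.06 and -1.21) were between, and MCM7 fell least (-0.71 and -0.63). The MCM7 call in WT organoids (adjusted p = 0.0437) was lost in 12 of 23 alternative settings, with adjusted p up to 0.21, among them the fits that left out any of WT replicates 1, 3 and 4 and KO replicate 2 of day 10 or any day 60 library. In KO organoids it was lost without either KO library of day 60 (adjusted p up to 0.117).

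Genes of origin firing and the fork fell as well, 4 of 4 in each genotype. MCM10, which binds the helicase as it starts, had 17.6 and 18.5 CPM at day 60 against 42, 58.2, 65 and 61.6 CPM at day 10 in KO organoids (log2 fold change -1.65 ± 0.26 SE, adjusted p = 0.000252). The WT organoids had 11.2 and 8.32 CPM at day 60 against 45.6, 43, 68 and 67.9 CPM at day 10 (log2 fold change -2.52 ± 0.27 SE, adjusted p = 1.96e-05). No library of day 60 reached the lowest of day 10 in either genotype. GINS2, a GINS subunit of the active helicase, changed by -2.05 in KO and -2.05 in WT organoids on the log2 scale. CDC45, its other partner, changed by -1.47 and -1.57, and PCNA, the sliding clamp of the polymerases, by -0.97 and -1.27. The PCNA call in KO organoids was lost without either KO library of day 60 (adjusted p up to 0.061).

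All 4 genes of nucleotide synthesis fell in both genotypes. TYMS, thymidylate synthase, had 30.6 and 29.1 CPM at day 60 against 74.8, 73.5, 88.7 and 91.8 CPM at day 10 in KO organoids (log2 fold change -1.46 ± 0.20 SE, adjusted p = 8.83e-05). WT organoids had 18.1 and 19 CPM at day 60 against 72.2, 68.9, 103 and 97.2 CPM at day 10 (log2 fold change -2.20 ± 0.21 SE, adjusted p = 7.35e-06). The days did not overlap. RRM2 and RRM1, the subunits of ribonucleotide reductase, changed by -1.35 and -1.30 in KO and by -1.89 and -1.44 in WT organoids (log2 fold change). TK1, thymidine kinase of the salvage pathway, changed by -1.40 in KO and -1.49 in WT organoids.

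The G1 and G1/S regulators were the mixed group. CCND2, a D-type cyclin of neural progenitors, rose in both genotypes, unlike every other member called in WT organoids. It had 521 and 465 CPM at day 60 against 299, 404, 357 and 344 CPM at day 10 in KO organoids (log2 fold change 0.49 ± 0.17 SE, adjusted p = 0.0307). In WT organoids it had 697 and 662 CPM at day 60 against 254, 218, 308 and 331 CPM at day 10 (log2 fold change 1.29 ± 0.17 SE, adjusted p = 8.44e-05). The days did not overlap in either. In KO organoids 6 of 23 alternatives lost the call, among them the fits without KO replicate 3 or 4 of day 10 or either KO library of day 60, with adjusted p up to 0.202. CCND1, the other D-type cyclin, fell in WT organoids, with 120.5 and 153 CPM at day 60 against 245, 197, 362 and 357 CPM at day 10 (log2 fold change -1.09 ± 0.26 SE, adjusted p = 0.00368). In KO organoids CCND1 had 193 and 232 CPM at day 60 against 258, 297, 355 and 334 CPM at day 10 and did not pass (log2 fold change -0.55 ± 0.25 SE, adjusted p = 0.0768), although without KO replicate 1 or WT replicate 2 of day 10 in the fit it did. CCNE1, a cyclin E that activates CDK2, fell by 2.08 in KO and by 1.36 in WT organoids on the log2 scale. In KO organoids it had 3.96 and 4.06 CPM at day 60 against 22.6, 17.5, 15.2 and 12.8 CPM at day 10. WT organoids had 3.28 and 6.81 CPM of CCNE1 at day 60 against 9.88, 9.95, 17.8 and 14.3 CPM at day 10. The WT call of CCNE1 was lost in 1 of 23 alternatives, without WT replicate 1 of day 60 (adjusted p = 0.0827, against 0.000367 at the lowest). CCNE2, the other cyclin E, had 7.07 and 5.43 CPM at day 60 against 1.69, 3.42, 3.94 and 4.63 CPM at day 10 in KO organoids (log2 fold change 0.87 ± 0.33 SE, adjusted p = 0.0384). In WT organoids CCNE2 had 2.6 and 3.38 CPM at day 60 against 4.45, 4.64, 5.24 and 5.99 CPM at day 10 and did not pass (log2 fold change -0.76 ± 0.35 SE, adjusted p = 0.0822). The days were separate in both genotypes. The rise in KO was not called in 6 of 23 alternatives (adjusted p up to 0.245), among them the fits without the B16 libraries of day 10, without KO replicate 2 of day 10 and without either KO library of day 60. In WT organoids CCNE2 passed without KO replicate 1 of day 10 in the fit. CCNE2 had 29 to 125 counts in a library, so its counting error is larger than that of most members. E2F1, a transcription factor of S phase genes, fell by 0.64 in KO and by 0.92 in WT organoids, and CDK2, the kinase of cyclin E, by 0.76 and 1.02 (log2 fold change). The E2F1 call was lost in KO in 5 of 23 alternatives, with library totals as the only scaling (log2 fold change -0.46, adjusted p = 0.0581), with the groups compared alone (0.0714), and without KO replicate 2 of day 10 or either KO library of day 60 (up to 0.153). It was lost in WT without WT replicate 2 of day 60 (0.0627). E2F2 had 17.9 and 19.4 CPM at day 60 against 18.3, 15.6, 15.8 and 16.6 CPM at day 10 in KO organoids. It had 14.1 and 9.93 CPM at day 60 against 12.6, 9.27, 22.4 and 20.2 CPM at day 10 in WT organoids. The days overlapped in both, and neither comparison passed (adjusted p = 0.651 in KO and 0.262 in WT). In WT organoids E2F2 passed in 3 of 23 alternatives, each without WT replicates 1 and 2 of day 10.

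Among the genes of mitotic entry, all 6 fell in WT and 5 of 6 in KO organoids. CCNB2, a cyclin B, had 51.5 and 49.6 CPM at day 60 against 159, 143, 178 and 168 CPM at day 10 in KO organoids (log2 fold change -1.68 ± 0.25 SE, adjusted p = 0.000153). The WT organoids had 37.7 and 36.8 CPM at day 60 against 114, 95.1, 176 and 173 CPM at day 10 (log2 fold change -1.90 ± 0.25 SE, adjusted p = 7.67e-05). The days did not overlap. CCNB1, the main cyclin B, changed by -1.62 in KO and -1.89 in WT organoids, and PLK1, the polo-like kinase of mitosis, by -1.79 and -1.68 (log2 fold change). AURKA, the Aurora kinase of centrosomes, changed by -1.44 and -1.54, and CCNA2, cyclin A, by -0.96 and -1.29. The CCNA2 call in KO organoids was lost without either KO library of day 60 (adjusted p up to 0.0699). CDK1, the kinase they activate, was the exception in KO organoids, with 91.9 and 77.7 CPM at day 60 against 93.9, 115, 137 and 140.3 CPM at day 10 (log2 fold change -0.52 ± 0.26 SE, adjusted p = 0.11). In WT organoids CDK1 had 64.8 and 56.3 CPM at day 60 against 85.9, 77.5, 139 and 139 CPM at day 10 and passed (log2 fold change -0.87 ± 0.27 SE, adjusted p = 0.0164). The days were separate in both, though by a small margin in KO organoids. The WT call was lost in 3 of 23 alternatives, with the B16 libraries alone or without either WT library of day 60 (adjusted p up to 0.113), and CDK1 passed in KO in 3, each without WT replicates 1 and 2 of day 10.

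All 5 genes of the spindle checkpoint and the anaphase-promoting complex fell in both genotypes. BUB1B, the checkpoint kinase BubR1, had 53.2 and 52.7 CPM at day 60 against 117, 147, 163 and 184 CPM at day 10 in KO organoids (log2 fold change -1.53 ± 0.24 SE, adjusted p = 0.000223). WT organoids had 38.6 and 33.8 CPM at day 60 against 122, 109, 163 and 178 CPM at day 10 (log2 fold change -1.98 ± 0.24 SE, adjusted p = 4.73e-05). The days did not overlap. BUB1, a kinetochore kinase of the same checkpoint, changed by -1.39 in KO and -1.64 in WT organoids, and MAD2L1, which encodes the MAD2 protein of the checkpoint, by -1.27 and -1.61 (log2 fold change). CDC20, the activator that the checkpoint blocks, changed by -1.36 and -1.46, and UBE2C, the ubiquitin-conjugating enzyme of the complex, by -1.28 and -1.52.

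The 4 centromere and kinetochore genes also fell in both genotypes. BIRC5 (survivin), a subunit of the chromosomal passenger complex, had 45.6 and 44.6 CPM at day 60 against 203, 149, 149 and 148 CPM at day 10 in KO organoids (log2 fold change -1.85 ± 0.22 SE, adjusted p = 3.66e-05). In WT organoids it had 33 and 31.6 CPM at day 60 against 123, 107, 159 and 172 CPM at day 10 (log2 fold change -2.12 ± 0.22 SE, adjusted p = 1.64e-05). The days did not overlap. CENPA, the centromeric histone, changed by -1.0 in KO and -1.20 in WT organoids (log2 fold change). CENPE, a kinetochore motor, changed by -1.28 and -1.54, and CENPF, a large kinetochore protein, by -0.99 and -1.49. In KO organoids replicate 1 of day 10 brought the days into overlap for both of these. The CENPF call in KO was lost in 5 of 23 alternatives, with the replicate block (adjusted p = 0.0794), the label code term (0.0545) or the B16 libraries alone (0.082), and without either KO library of day 60 (up to 0.116). That of CENPE was lost in 3, with the replicate block (0.0603), the B16 libraries alone (0.0778) and without KO replicate 2 of day 60 (0.105).

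The spindle genes ranged from the largest G2/M fall to the smallest. HMMR, a spindle assembly protein, had 7.97 and 7.57 CPM at day 60 against 24.3, 33.8, 42.6 and 39.9 CPM at day 10 in KO organoids (log2 fold change -2.18 ± 0.30 SE, adjusted p = 0.000104). The WT organoids had 5.52 and 6.55 CPM at day 60 against 24.4, 22.6, 37.9 and 38.8 CPM at day 10 (log2 fold change -2.35 ± 0.30 SE, adjusted p = 7.13e-05). The days were separate in both. NUSAP1 and TPX2, which nucleate and bundle spindle microtubules, changed by -1.24 and -0.99 in KO and by -1.65 and -1.26 in WT organoids. PRC1, which crosslinks the midzone of anaphase, had 156 and 143 CPM at day 60 against 159.6, 159, 176 and 187 CPM at day 10 in KO organoids and did not pass (log2 fold change -0.19 ± 0.17 SE, adjusted p = 0.36). In WT organoids PRC1 had 109 and 99.7 CPM at day 60 against 139, 124, 172 and 186 CPM at day 10 (log2 fold change -0.57 ± 0.17 SE, adjusted p = 0.014). The days did not overlap for PRC1 in either genotype. The WT call was lost with the B16 libraries alone and without WT replicate 2 of day 60 (adjusted p up to 0.108). ASPM, a spindle pole protein whose loss causes microcephaly, did not pass in either. It had 89.7 and 82.6 CPM at day 60 against 39.4, 119, 105 and 139 CPM at day 10 in KO organoids (log2 fold change -0.23 ± 0.36 SE, adjusted p = 0.616). In WT organoids ASPM had 67.4 and 49.4 CPM at day 60 against 93.4, 87.2, 104 and 105 CPM at day 10 (log2 fold change -0.74 ± 0.37 SE, adjusted p = 0.113). The days overlapped in KO organoids, where replicate 1 of day 10 alone was below the day 60 libraries, and were separate in WT organoids. Without that KO library in the fit, ASPM passed in KO (log2 fold change -0.49, adjusted p = 0.0185) and in WT organoids (-0.74, adjusted p = 0.00177). Over all 23 alternatives its adjusted p ran from 0.00698 to 0.976 in KO and from 0.000596 to 0.406 in WT organoids.

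Of the chromosome structure genes, TOP2A fell in both genotypes and MKI67 in WT organoids. TOP2A, the topoisomerase that untangles sister chromatids, changed by -0.92 ± 0.25 SE in KO and -1.45 ± 0.26 SE in WT organoids (log2 fold change). It had 436 and 420 CPM at day 60 against 512, 921, 855 and 948 CPM at day 10 in KO organoids. WT organoids had 275 and 246 CPM of TOP2A at day 60 against 647, 552, 802 and 851 CPM at day 10. Its KO call was lost without either KO library of day 60 (adjusted p up to 0.0619). MKI67, the Ki-67 proliferation antigen, had 197 and 200.3 CPM at day 60 against 173, 298, 269 and 354 CPM at day 10 in KO organoids and did not pass (log2 fold change -0.46 ± 0.23 SE, adjusted p = 0.105). WT organoids had 135 and 113 CPM at day 60 against 279, 267, 311 and 326 CPM at day 10 (log2 fold change -1.25 ± 0.24 SE, adjusted p = 0.00103). The days overlapped in KO organoids, where replicate 1 of day 10 was below both libraries of day 60, and were separate in WT organoids. Without that library MKI67 passed in KO organoids too.

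**Figure D3:**
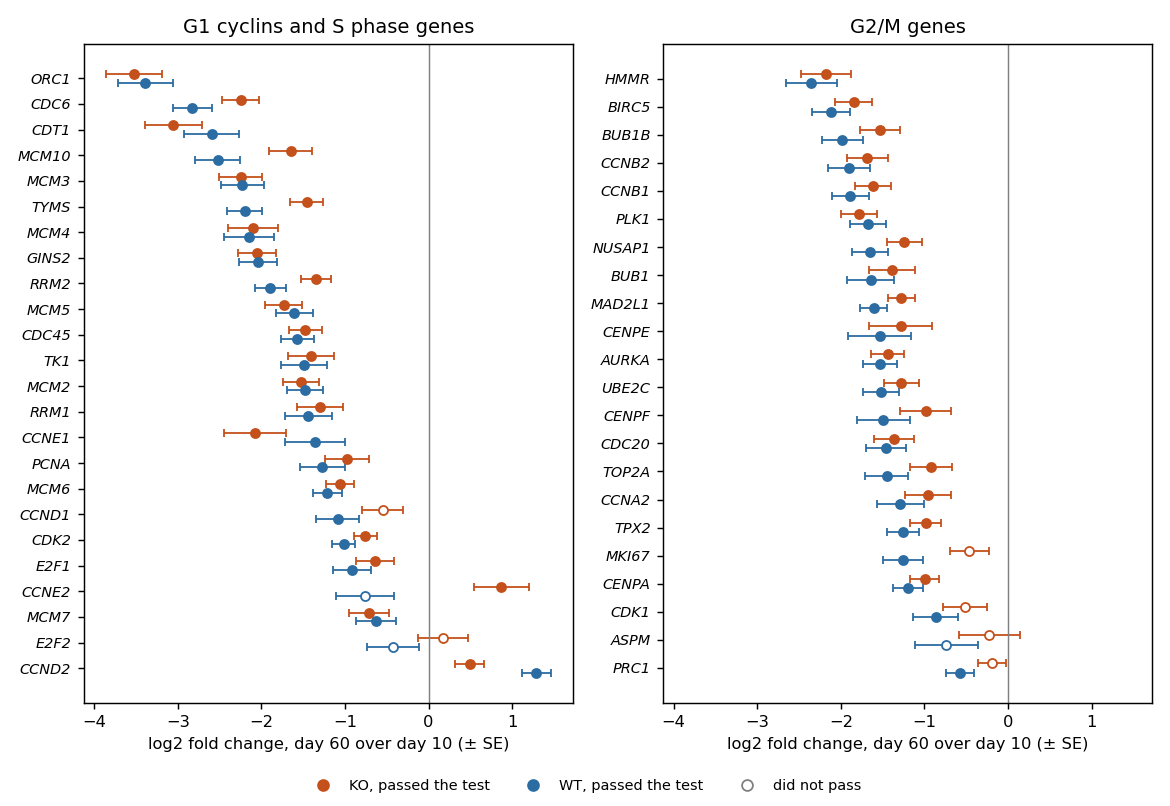
Log2 fold change of day 60 over day 10 with its SE for each gene in KO and WT organoids, sorted by the WT value, with filled points where the adjusted p was below 0.05. ORC1 sits lowest in both genotypes, CCND2 lies above 0 in both, and the KO point of CCNE2 lies above 0 while its WT point lies below.

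Per kilobase of the longest coding transcript (GENCODE v29), mean levels in WT organoids at day 60 ran from 0.898 CPM for CCNE2 to 104.9 CPM for CCND2. At day 10 they ran from 1.53 CPM for CCNE2 to 217.9 CPM for TPX2, where CCND2 had 42.9 CPM. CCND2 was thus the most abundant member per length in WT organoids at day 60 but not at day 10. Levels per length in KO organoids were not compared.

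Genes of the same pathways outside the set moved alike. Of 39 other S phase genes, 31 fell and 1 rose in KO and 32 fell in WT organoids, with medians of -1.30 and -1.60 (log2 fold change). BRIP1, a helicase of DNA repair, changed most in WT (-3.25), then GINS4 (-3.02) and HELLS (-2.77). Of 42 other G2/M genes, 28 fell and 1 rose in KO and 36 fell and 1 rose in WT organoids, with medians of -1.10 and -1.42. MYBL2, a transcription factor of the G2/M programme, had -2.30 and DLGAP5 -2.14 in WT organoids, and JPT1 was the gene that rose (0.85). CDK inhibitors and exit genes went the other way, with 7 of 10 higher and 1 lower in each genotype (median 1.91 in KO and 1.43 in WT organoids). CDKN2D, the inhibitor p19, had 116.2 and 116.9 CPM at day 60 against 4.42, 3.10, 2.49 and 2.06 CPM at day 10 in KO organoids. In WT organoids CDKN2D had 136 and 107.1 CPM at day 60 against 9.75, 10.4, 2.93 and 3.08 CPM at day 10 (log2 fold change 4.21 ± 0.46 SE, adjusted p = 2.13e-05). BTG2 was the gene of that list that fell in WT (-1.06). Of 13 pocket protein and DREAM complex genes, which repress cell cycle promoters, 3 rose and 4 fell in KO, and 1 rose and 6 fell in WT organoids. Of 11 other cyclins and CDKs, 3 rose and 6 fell in KO, and 3 rose and 5 fell in WT organoids. CCNA1 rose in WT by 5.18 and CDC25A, a phosphatase that activates CDKs, fell by 2.19 on the log2 scale. Pan-neuronal markers moved with the day too, and 14 of 14 were called higher in KO and 7 of 14 in WT organoids. Their sums were 5438 to 5596 CPM at day 60 against 701.8 to 1018 CPM at day 10 in KO, and 4717 to 6166 CPM at day 60 against 731 to 3029 CPM at day 10 in WT organoids. Of 7 mesenchyme markers, 5 were called higher in KO and 6 in WT organoids, with sums of 626.4 to 792.3 CPM at day 60 against 220.5 to 376.1 CPM at day 10 in KO. The mesenchyme sums in WT were 1899 to 3919 CPM at day 60 against 277.2 to 1271 CPM at day 10. Of 9 neural crest and placode markers, 1 was called higher and 1 lower in KO, and 1 higher and 6 lower in WT organoids. Their sums were 12.3 to 21.3 CPM at day 60 against 22.4 to 51.4 CPM at day 10 in KO, and 12.4 to 27.2 CPM at day 60 against 32.6 to 1117 CPM at day 10 in WT organoids. The part of these lists in the falls was not tested.

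The second comparison set KO against WT organoids at day 60. Every G2/M gene was higher in both KO libraries than in both WT libraries, and so were 20 of 22 S phase genes, but no member passed the test. The log2 fold change was above 0 in 22 of 22 G2/M and 21 of 22 S phase genes, against 48.3% of all genes. Over all genes, 24.1% were higher in KO without overlap, 22.4% lower without overlap, 0% called higher and 0.0225% called in either direction. The median log2 fold change of KO over WT was 0.34 for S phase and 0.48 for G2/M genes, against -0.01 for all genes. The S phase sum averaged 1124 ± 5.95 CPM in KO and 896 ± 66.5 CPM in WT organoids (SD, n = 2 each), and was 25.5% higher. The G2/M sum averaged 2396 ± 69.7 CPM in KO and 1631 ± 129 CPM in WT organoids (SD, n = 2 each), and was 46.9% higher. An unadjusted p below 0.05 was reached by 5 S phase and 8 G2/M genes, against 5.6% of all genes, and DESeq2 called none of the 44.

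Among the S phase genes the smallest p went to TYMS, MCM10 and CDC6. TYMS had 30.6 and 29.1 CPM in KO and 18.1 and 19 CPM in WT organoids (log2 fold change 0.69 ± 0.22 SE, adjusted p = 0.5). MCM10 had 17.6 and 18.5 CPM in KO and 11.2 and 8.32 CPM in WT organoids (log2 fold change 0.89 ± 0.28 SE, adjusted p = 0.506). CDC6 had 12.8 and 12.1 CPM in KO and 7.81 and 7.66 CPM in WT organoids (log2 fold change 0.69 ± 0.24 SE, adjusted p = 0.597). In all 3 genes both KO libraries were above both WT libraries. Among the G2/M genes the smallest p went to NUSAP1, PRC1 and MKI67. NUSAP1 had 114 and 111 CPM in KO and 71.3 and 67 CPM in WT organoids (log2 fold change 0.70 ± 0.23 SE, adjusted p = 0.546). PRC1 had 156 and 143 CPM in KO and 109 and 99.7 CPM in WT organoids (log2 fold change 0.52 ± 0.19 SE, adjusted p = 0.679). MKI67 had 197 and 200.3 CPM in KO and 135 and 113 CPM in WT organoids (log2 fold change 0.68 ± 0.26 SE, adjusted p = 0.707). These too were separate. The log2 fold changes of all 22 G2/M genes ran from 0.28 for PLK1 to 0.71 for TOP2A, and those of the S phase genes other than CCNE1 from 0.10 for CDK2 to 1.06 for CCNE2. By role, the medians were 0.70 for chromosome structure, 0.52 for nucleotide synthesis, 0.52 for spindle, 0.48 for checkpoint and 0.30 for licensing genes. Outside the pattern were CCNE1 (-0.33) and CDT1 (0.14), whose groups overlapped. CCND1 had 193 and 232 CPM in KO and 120.5 and 153 CPM in WT organoids (log2 fold change 0.64 ± 0.28 SE, adjusted p = 0.857). CCND2 had 521 and 465 CPM in KO and 697 and 662 CPM in WT organoids (log2 fold change -0.46 ± 0.21 SE, adjusted p = 0.858). The D-type cyclins thus differed in opposite directions, each without overlap and neither past the test in the fit of all 12 libraries.

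Whether members passed at day 60 changed with the libraries of day 10 that entered the fit, although the libraries of day 60 were the same. These fits differed in the estimate of spread, the scaling and the genes kept, which were not separated. With the 4 day 60 libraries alone, TYMS and 7 G2/M genes were called higher in KO (CCNB1, BUB1B, CDC20, UBE2C, NUSAP1, MKI67 and TOP2A), against 0.594% of all genes called higher. Without the B16 libraries of day 10 in the fit, 6 S phase genes (E2F1, CDC6, MCM10, GINS2, RRM2 and TYMS) and 14 G2/M genes were called higher, against 1.82% of all genes. In that fit CCND1 was called higher too (log2 fold change 0.65 ± 0.12 SE, adjusted p = 0.0263). CCND2 was called lower there (-0.45 ± 0.09 SE, adjusted p = 0.0278), against 0.579% of all genes called lower. Leaving out WT replicates 1 and 2 and KO replicate 1 of day 10 gave CCND1, 3 S phase and 12 G2/M genes, all called higher, against 1.45% of all genes. That setting was chosen after seeing the data. NUSAP1 was called in all 3 of these fits, with adjusted p = 0.0255, 0.00313 and 0.00544, but in none of the other 20 alternatives, where it reached 1. The genes outside the set ran alike, with 38 of 39 other S phase genes (median 0.28) and 40 of 42 other G2/M genes (median 0.45) above 0, and none called. Of 7 mesenchyme markers, none was called but all 7 log2 fold changes were below 0, and their sums were 626.4 and 792.3 CPM in KO and 1899 and 3919 CPM in WT organoids. None of the 7 was at 0 in every library of a group. Neuroepithelial markers summed to 3825 and 3917 CPM in KO and 3541 and 3251 CPM in WT organoids, with 11 of 13 above 0. The part of either list in the member differences was not tested.

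At day 10 most members were slightly higher in KO than in WT organoids, none passed the test, and the difference was not shared by all label codes. Of the S phase genes 18 of 22 were above 0 and of the G2/M genes 21 of 22 (48.8% of all genes), with median log2 fold changes of KO over WT of 0.26 and 0.18 against -0.01 for all genes. Leaving out 1 library took the S phase median to 0.13 (without KO replicate 1) and the G2/M median to 0.07 (without WT replicate 2). No member passed, against 0.124% of all genes called in either direction, and DESeq2 called no S phase or G2/M member. An unadjusted p below 0.05 was reached by 3 S phase and 1 G2/M gene, against 12.3% of all genes. The groups were separate for 1 member, GINS2, against 2.33% of all genes higher without overlap. GINS2 had 113, 87.1, 83.1 and 80.9 CPM in KO and 58.9, 51.1, 80.0 and 80.7 CPM in WT organoids (log2 fold change 0.43 ± 0.17 SE, adjusted p = 0.325). The margin was narrow, since the lowest KO library was just above the highest WT library. CDT1 had 330.2, 203, 211 and 189 CPM in KO and 126, 104, 179 and 208 CPM in WT organoids (log2 fold change 0.60 ± 0.23 SE, adjusted p = 0.327). MCM5 had 199, 127, 137 and 120.3 CPM in KO and 103, 92.7, 127 and 119 CPM in WT organoids (log2 fold change 0.40 ± 0.17 SE, adjusted p = 0.356). Both overlapped, with KO replicate 1 highest and WT replicates 1 and 2 lowest. PLK1 had 257, 181, 200.1 and 176 CPM in KO and 138, 121, 182 and 180.4 CPM in WT organoids (log2 fold change 0.39 ± 0.16 SE, adjusted p = 0.356). CDC20 had 332, 205, 229 and 202 CPM in KO and 166, 144, 214 and 216 CPM in WT organoids (log2 fold change 0.39 ± 0.18 SE, adjusted p = 0.42). UBE2C had 272, 196, 177 and 165 CPM in KO and 148, 138, 182 and 176 CPM in WT organoids (log2 fold change 0.33 ± 0.16 SE, adjusted p = 0.444). The same libraries marked the ends in these 3 genes. The lowest values were -0.57 for CCNE2 among S phase genes and -0.11 for MKI67 among G2/M genes. The G1 cyclins had 0.10 for CCND1 and 0.34 for CCND2, both with overlap.

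Within codes, the day 10 difference was seen in B16 and not in B27 or B29. The median difference in mean log2 CPM, KO minus WT, was 0.57 for S phase and 0.34 for G2/M genes in B16 (2 libraries each). It was -0.08 and 0.02 in B27, and -0.03 and 0.01 in B29, with 1 library of each genotype and no test. Of the S phase genes, 20 of 22 were higher in KO in B16, 4 of 22 in B27 and 5 of 22 in B29. Of the G2/M genes, 18, 13 and 12 of 22 were. With the B16 libraries alone, 7 S phase genes (ORC1, CDT1, MCM2, MCM3, MCM4, MCM7 and GINS2) and 3 G2/M genes (CCNB1, PLK1 and UBE2C) were called higher in KO, against 3.52% of all genes. The 2 B16 WT libraries had lower levels than the B27 and B29 WT libraries in 20 of 22 S phase genes (median difference -0.53 in log2 CPM) and in all 22 G2/M genes (-0.51). Without these 2 WT libraries the S phase median was -0.02, a setting chosen after seeing the data. Those same WT libraries held the summed neural crest markers given above, with pan-neuronal markers of 2618 and 3029 CPM and mesenchyme markers of 958.7 and 1271 CPM. In the other 6 libraries of day 10 pan-neuronal markers summed to 701.8 to 1018 CPM and mesenchyme markers to 220.5 to 376.1 CPM. No marker of these lists was at 0 in every library of a group. Of the list members, 0 of 9 crest, 0 of 7 mesenchyme and 1 of 14 neuronal markers were above 0 in KO over WT. Their part in the member differences was not tested.

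**Figure D4:**
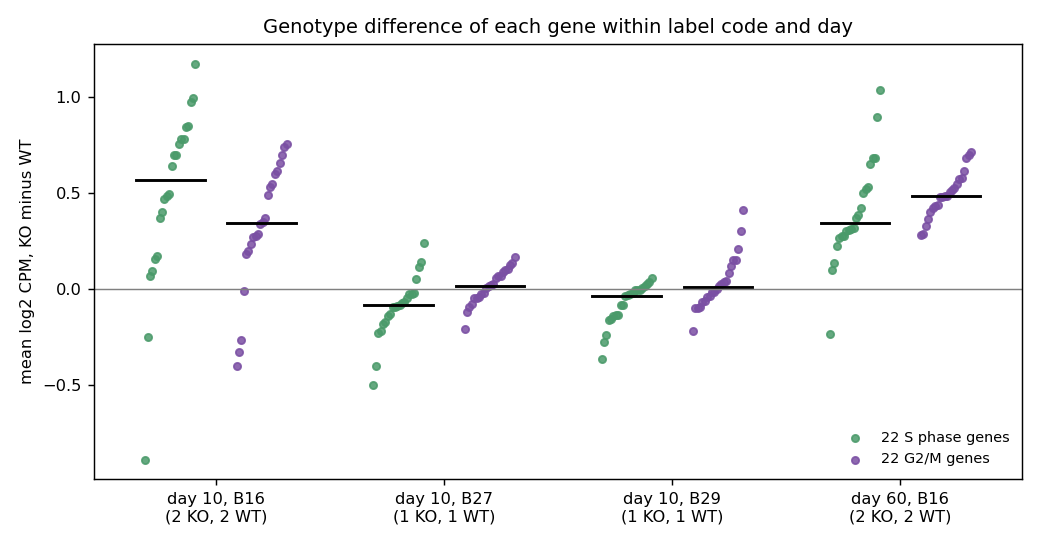
Difference in mean log2 CPM, KO minus WT, of each S phase and G2/M gene within each label code at day 10 and within B16 at day 60, with black lines at the medians. The points lie mostly above 0 for B16 at day 10 (medians 0.57 and 0.34) and at day 60 (0.35 and 0.48), and around 0 for B27 and B29.

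The difference itself was tested, as KO over WT at day 60 minus the same at day 10. The test called no member and none of the 17757 genes (0%), and DESeq2 called no S phase or G2/M member. The difference was above 0 in 14 of 22 S phase and 21 of 22 G2/M genes, against 52.5% of all genes. The median was 0.12 for S phase and 0.27 for G2/M genes, against 0.02 for all genes, with 4 and 1 members at an unadjusted p below 0.05 against 7.15% of all genes. The S phase median was -0.14 with the B16 libraries alone and 0.37 without the B16 libraries of day 10, and it was 0.011 without WT replicate 3 of day 10 and 0.23 without WT replicate 1 of day 60. CCNE2 had the smallest p of the members and the highest value (log2 fold change 1.63 ± 0.48 SE, adjusted p = 0.526). CCND2 had the next smallest p and the lowest value, in the other direction (log2 fold change -0.80 ± 0.25 SE, adjusted p = 0.526). By p, TYMS (log2 fold change 0.74 ± 0.26 SE, adjusted p = 0.6) and MCM10 (log2 fold change 0.88 ± 0.34 SE, adjusted p = 0.635) came next. The levels of all 4 are those given above. Among the G2/M genes MKI67 (log2 fold change 0.79 ± 0.32 SE, adjusted p = 0.662), PRC1 (log2 fold change 0.39 ± 0.24 SE, adjusted p = 0.83) and MAD2L1 (log2 fold change 0.33 ± 0.21 SE, adjusted p = 0.848) had the smallest p. With the B16 libraries alone, no S phase or G2/M member was called, while 908 of 17625 genes were. Without the B16 libraries of day 10, CDC6 and TYMS were called (adjusted p = 0.0436 and 0.0369), against 0.115% of all genes called higher. Without WT replicates 1 and 2 and KO replicate 1 of day 10, CDC6, MCM10 and TYMS were, against 0.137%. The adjusted p of TYMS ran from 0.0369 to 1 over 22 alternatives. All 4 libraries of day 60 were B16, so with the B16 libraries of day 10 left out the 2 days had different codes. The balance of the phases was not tested. The S phase sum divided by the G2/M sum was 0.458 and 0.481 in KO and 0.548 and 0.551 in WT organoids at day 60. At day 10 it was 0.814, 0.589, 0.603 and 0.553 in KO and 0.589, 0.579, 0.634 and 0.595 in WT organoids. The KO libraries of day 60 were lowest of all 12 and KO replicate 1 of day 10 was highest, while at day 10 the WT values lay within the KO range.

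That KO replicate 1 differed from the other KO libraries of day 10 in step with transcript length. Its log2 CPM minus the mean of the other 3 was positive in 11 of 19 members with a longest coding transcript under 3 kb (median 0.21), in 6 of 19 members of 3 to 5 kb (median -0.12) and in 1 of 8 members of 5 kb or more (median -0.82). ASPM (-1.61) and CENPE (-1.51) were lowest, then CCNE2 (-1.185), with a transcript of only 3.33 kb, and CENPF (-1.16). ASPM had 39.4 CPM there, against 119, 105.2 and 139.4 CPM in the other KO libraries. Pearson's r with log length was -0.64 over the 46 members and -0.51 over 15091 tested genes, across genes of a single library, which are not independent. Each library was set in the same way against the others of its group. Over the members r was then 0.66, 0.37 and 0.56 in KO replicates 2 to 4, whose comparison mean includes replicate 1, and between -0.18 and 0.08 in the 4 WT libraries of day 10. At day 60, with 2 libraries a group that mirror each other, it was 0.27 and -0.27 in KO and 0.34 and -0.34 in WT organoids. Its share of ribosomal protein counts was given above, and what set this library apart was not tested.

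**Figure D5:**
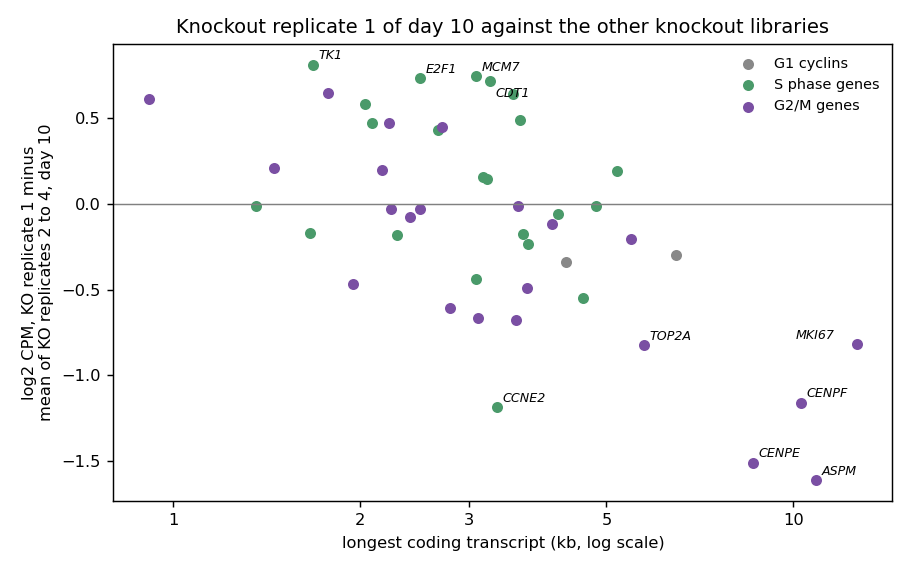
Log2 CPM of KO replicate 1 of day 10 minus the mean of KO replicates 2 to 4, for each of the 46 genes against the length of its longest coding transcript (log axis). TK1, E2F1 and MCM7 lie highest, and the longest transcripts, ASPM, CENPE, CENPF and MKI67, lie far below 0, as does the shorter CCNE2.

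In the authors' deposited table of FEZ1-null over wildtype, whose libraries the headers did not name, none of the 46 members had an adjusted p below 0.05, against 2.74% of 19179 genes with a value. In that table the log2 fold change was positive for 19 of 22 S phase and 21 of 22 G2/M genes. The lowest adjusted p of a member in the authors' deposited table was 0.187, for CDT1 with a log2 fold change of 0.62.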

How the data were processed

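Bulk RNA sequencing was done on 12 libraries of H1-derived cerebral organoids, with RNA extracted in TRIzol per the labels. The authors deposited raw counts per gene, and the submitters' processing notes name STAR, HTSeq, DESeq2 and hg19, with no versions. Neither the annotation nor the use of strand is given in the sources used here, so counts of a gene and an antisense partner may not be told apart. From the authors' deposited table of FEZ1-null over wildtype, the log2 fold changes and adjusted p-values are quoted as such. The authors' table of normalized values was not used. Samples were grouped by genotype and day from the titles.

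Library totals ran from 15668253 to 22745658 counts. Genes were filtered with filterByExpr over the 4 groups, scaled by TMM and tested with edgeR 4.0.16 (R 4.3.3, limma 3.58.1) by the robust quasi-likelihood test, with 4 group means in 1 fit over all 12 libraries, two-sided, with Benjamini-Hochberg adjustment over 17757 genes and calls at an adjusted p below 0.05. CPM is the count divided by the product of the library total and its TMM factor, times 1e+06, and log2 CPM used a prior count of 2. The steps were tested on simulated data. Alternatives were RLE factors, library totals only, no filter on low counts, DESeq2 1.42.0, a replicate block, a label code term, subsets of libraries and each library left out. Promoters came from RefSeq (GRCh38.p14), transcript lengths from GENCODE v29, and hg19 coordinates were not used here.

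The members and gene lists were chosen with earlier results of these data known. All 46 members may be named. Values in every library were given for members called in a genotype comparison or the interaction, or the 3 with the smallest p of a phase where fewer were called. For the day comparison in wildtype they were given for the largest fall of each role, any member that rose and any not called, and the day values of CDC6, CCND1, CDK1, PRC1 and MKI67 were added after they were seen. Other lists gave up to 3 called genes a direction. No pair of libraries was identical.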

Additional observations from a re-analysis of the deposited data

Results flagged for a closer look

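In 98 sets of 4 values of the 46 members and their sums at day 10, the highest or lowest library stood far from the other 3 in 4 sets (4.08%). Chance would give about 1 in 20 among independent sets. These sets share their libraries and are not independent, so the share cannot be read against that rate. In each of the 4 it was KO replicate 1 of day 10, and it was the highest. CDT1 had 330.2 CPM there, against 211.0 CPM in the next KO library and 189.3 CPM in the lowest. TK1 had 60.6 CPM there, against 36.2 CPM in the next and 33.3 CPM in the lowest. CCNB1 had 255 CPM there (254.8 to a decimal), against 224.0 CPM in the next and 219.7 CPM in the lowest. BIRC5 had 203.0 CPM there, against 149.1 CPM in the next and 147.8 CPM in the lowest. Its CPM was divided by a TMM factor of 0.876, against 0.972 to 0.993 in the other KO libraries of day 10. The lower factor raises its CPM relative to theirs. The library was also the one with the highest ribosomal protein share and the length relation. The part of the scaling, the share and the length relation in these values was not tested.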

How the results depend on the processing

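The falls with age kept their direction in the medians under all 23 alternatives. Of the members called, 17 of 21 S phase and 14 of 18 G2/M genes in KO and 17 of 20 and 19 of 21 in WT organoids passed in every alternative. Leaving out each of the 12 libraries in turn, 17 to 21 S phase and 14 to 20 G2/M genes were called in KO (medians -1.52 to -1.39 and -1.33 to -1.23). In WT organoids 18 to 21 and 19 to 22 were called (medians -1.65 to -1.45 for S phase and -1.65 to -1.45 for G2/M genes). Library totals as the only scaling moved the median of all genes to 0.19 in KO and 0.10 in WT organoids, and the S phase median in KO to -1.30. With the B16 libraries alone the WT medians were -1.36 and -1.27 (S phase and G2/M). The S phase median in WT was -1.76 without the B16 libraries of day 10, -1.75 without both B16 WT libraries of day 10 and -1.76 without these and KO replicate 1. Settings that leave out both B16 WT libraries, with or without KO replicate 1, were chosen after seeing the data.

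For KO over WT at day 10, the B16 libraries alone gave 7 S phase and 3 G2/M calls and an S phase median of 0.57. That median was -0.055 without the B16 libraries of day 10, -0.022 without both B16 WT libraries and -0.032 without these and KO replicate 1. At day 60 the groups compared alone gave 1 S phase and 7 G2/M calls, the fit without the B16 libraries of day 10 gave 6 and 14, and the fit without both B16 WT libraries and KO replicate 1 gave 3 and 12. For the difference of differences, the S phase median was -0.14 with the B16 libraries alone. Without the B16 libraries of day 10 it was 0.37, with 2 S phase calls. Without both B16 WT libraries of day 10 the medians were 0.30 and 0.54, and without KO replicate 1 as well they were 0.37 and 0.51, with 3 S phase calls. Leaving out each library in turn gave 0 S phase and 0 G2/M calls in all 3 comparisons. The S phase and G2/M medians then ran from 0.13 to 0.31 and 0.07 to 0.29 at day 10, from 0.32 to 0.45 and 0.42 to 0.59 at day 60, and from 0.011 to 0.23 and 0.19 to 0.39 for the difference. The fit of the groups compared only does not apply to the difference and was not run. The cause of these shifts was not tested.

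Replicate numbers were not shown to pair the libraries, since same-numbered libraries correlated in their deviations at 0.12, -0.08, 0.30 and -0.10 at day 10 and at 0.12 at day 60. With the replicate block, 21 S phase and 16 G2/M genes were called with day in KO, 19 and 21 in WT organoids, and 0 in the genotype comparisons and their difference. Day 60 had 2 libraries a group, and counting error limits the members with the fewest counts, such as CCNE2 (29 to 125 counts a library) and CCNE1 (63 to 135 at day 60).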
